A study of Mus musculus with 12 samples.

Results

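The 10 genes described here were Atf4, Ddit3, Trib3, Asns, Chac1, Phgdh, Psat1, Psph, Shmt2 and Mthfd2, which encode the transcription factor ATF4, genes it is known to activate, and the enzymes of serine and one-carbon synthesis. They were chosen by name from the symbols of the deposited expression table and joined by gene identifier to the read counts, and all 10 of the 45792 genes listed were found. All 10 passed the filter on low counts and belonged to the 15706 genes that were tested.

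Ribosome-depleted RNA was sequenced from primary neural stem cells (NSCs) of neonatal mouse brain, grown without serum in medium with EGF, FGF, insulin, transferrin, selenite and B-27. The 3 groups of 4 libraries were untreated WT NSCs, Ncf1-/- NSCs without Igfbp2, and Ncf1-/- NSCs given recombinant mouse Igfbp2. Ncf1 encodes an organiser subunit of the NADPH oxidase Nox2, and Igfbp2 is a secreted protein that binds insulin-like growth factors. According to the labels Igfbp2 was added at 100 ng/ml 48 hours after plating and RNA was taken 48 hours later. The study's methods give a different dose, call the untreated Ncf1-/- cultures vehicle-treated, and state that each preparation came from 1 pup and that vehicle and Igfbp2 were given to paired cultures of the same 4 Ncf1-/- pups. The Ncf1 deletion was carried by both of these groups.

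ATF4 is translated preferentially when the initiation factor eIF2 is phosphorylated by one of its kinases, which sense amino acid shortage, unfolded protein in the endoplasmic reticulum, haem deficit or double-stranded RNA. It binds composite C/EBP-ATF elements and is known to activate genes for amino acid import and synthesis, tRNA charging and, with its partner CHOP, a stress branch. The serine pathway turns a glycolytic intermediate into serine, which serves proliferating cells as the source of glycine and of one-carbon units for nucleotide synthesis.

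Each library held between 18201622 and 34086554 assigned reads (RSEM expected counts). Ncf1 itself had 1 to 7 reads in every library, and 2 to 7 in the WT libraries, so its transcript could not check the genotype labels at this depth. The groups differed in cell markers: the summed level of 8 oligodendrocyte markers, in read counts scaled to library size (CPM), was 1970 to 10200 CPM in WT and 235.5 to 360.1 CPM in the 8 Ncf1-/- libraries, and that of 6 proliferation genes was 317.2 to 573.4 CPM in WT and 1245 to 1721 CPM in Ncf1-/-. The 8 neural stem cell markers were detected in every group, at a sum of 2456 to 7970 CPM in WT and 7456 to 8231 CPM in Ncf1-/-, but 5 of the 8 fell and 2 rose in vehicle-treated Ncf1-/- against WT. WT replicate 3 alone held the highest stem cell sum and the lowest oligodendrocyte sum of the WT libraries. The other WT libraries held 2456 to 3741 CPM and 5888 to 10200 CPM. All 6 astrocyte markers fell, from a sum of 6662 to 10660 CPM in WT to 1924 to 2302 CPM, and 5 of 7 neuron markers fell. In such bulk samples fewer cells of a type and less RNA per cell cannot be told apart, and the part of these markers in the differences from WT was not tested.

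WT replicate 4 stood apart from the other WT libraries in these genes. Among the WT libraries it had the highest level of 7 of the 10 genes, against 24.9% of all genes tested. The study's main sample sheet and the GEO label give it as untreated, while a second sheet in the study's code lists the same library as treated with apocynin, an inhibitor of NADPH oxidase. The summed level of 4 Y-linked genes was 6.46 CPM in WT replicate 4 and 7.8 to 9.18 CPM in the 4 Igfbp2-treated libraries, but 105.3 to 118.3 CPM in the other 3 WT and the 4 vehicle libraries. Y-linked expression and Igfbp2 treatment therefore cannot be told apart among the Ncf1-/- libraries, and Y-linked expression would differ within a pair however the vehicle and Igfbp2 libraries were paired. Where leaving out WT replicate 4 changed a call or moved a called value of the 10 genes by more than 1.5 times, the value without it is given.

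The promoters are shown for the 3 of the 10 genes that held a composite C/EBP-ATF element within this window, because it is the element that ATF4 is known to bind. All 10 genes matched a RefSeq promoter of GRCm38.p6, taken as 250 bases before to 50 bases after the annotated start, and Psat1 matched 2. The element searched was TGATGNAA on both strands, with N for any base, and it was present in 3.97% of the 32851 promoters of the same length and for 4.51% of 27025 genes. It lay at bases 15 to 22 after the start in Trib3, on the opposite strand, at bases -23 to -16 in Asns and at bases -193 to -186 in Chac1, on the opposite strand. The full CRE palindrome TGACGTCA, present in 1.79% of promoters, was not found in any of the 11. A missing match says only that these letters are not in this window. In the sequences below, read 5′ to 3′ along the gene, capitals mark the element as it reads on the strand shown. The Trib3 window is chr2:152344011-152344310 on the minus strand, the Asns window chr6:7693160-7693459 on the minus strand, and the Chac1 window chr2:119350992-119351291 on the plus strand.
Trib3: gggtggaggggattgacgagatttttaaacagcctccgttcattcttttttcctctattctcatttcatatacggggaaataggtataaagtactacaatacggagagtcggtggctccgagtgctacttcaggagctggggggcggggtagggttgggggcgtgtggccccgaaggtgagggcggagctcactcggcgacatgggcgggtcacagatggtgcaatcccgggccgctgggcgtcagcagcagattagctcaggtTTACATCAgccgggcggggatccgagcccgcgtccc
Asns: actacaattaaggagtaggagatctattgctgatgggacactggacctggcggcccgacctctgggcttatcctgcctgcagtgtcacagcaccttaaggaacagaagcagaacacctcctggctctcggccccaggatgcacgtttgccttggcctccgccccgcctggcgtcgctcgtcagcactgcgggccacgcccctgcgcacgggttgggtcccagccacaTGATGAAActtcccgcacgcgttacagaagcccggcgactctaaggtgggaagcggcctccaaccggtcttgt
Chac1: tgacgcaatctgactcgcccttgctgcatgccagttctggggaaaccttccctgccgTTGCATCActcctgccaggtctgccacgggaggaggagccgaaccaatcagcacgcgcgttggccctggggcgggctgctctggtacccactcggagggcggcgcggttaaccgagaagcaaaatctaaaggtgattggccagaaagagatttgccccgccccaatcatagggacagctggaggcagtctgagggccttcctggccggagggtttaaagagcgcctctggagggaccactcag

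The first comparison asked which of the genes differed between Ncf1-/- and WT NSCs. Of the 10 genes, 6 rose in Ncf1-/- NSCs (Atf4, Asns, Psat1, Psph, Shmt2 and Mthfd2), none fell, and 4 did not pass the test (Ddit3, Trib3, Chac1 and Phgdh). Over all genes tested 57.2% were called in this comparison, with 28.9% of all genes called higher and 28.2% lower. The same 6 genes did not overlap between the groups, all of them higher, beside 51.2% of all genes, 26.1% higher and 25.0% lower. The median log2 difference of the 10 genes was 0.50, beside 0.02 over all genes tested. The threshold was an adjusted p under 0.05 in edgeR's quasi-likelihood test.

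The second comparison asked how Ncf1-/- NSCs given Igfbp2 differed from those given vehicle. Here 2 of the 10 genes rose, Asns and Shmt2, and none fell, where 25.0% of all genes were called, 14.2% higher and 10.7% lower. Ddit3, Trib3, Asns, Chac1 and Shmt2 were higher in every Igfbp2-treated library than in every vehicle library, a separation upward that 19.3% of all genes showed, while 34.1% did not overlap in either direction and 14.7% were separate downward. The median log2 difference of the 10 genes was 0.38, beside 0.04 over all genes. In the third comparison, Igfbp2-treated Ncf1-/- against WT, 7 of the 10 genes rose, all but Atf4, Ddit3 and Trib3, where 62.4% of all genes were called, 31.6% higher and 30.8% lower. The Psat1 call was lost in 17 of 22 alternatives, 9 of them fits that left out 1 library. Without WT replicate 4 Ddit3 and Trib3 were called higher and Psat1 was not called, which gave 8 of the 10 genes, beside 62.3% of all genes. Here 5 of the 10 genes did not overlap between the groups, all of them higher, beside 54.3% of all genes, 27.8% higher and 26.6% lower. These 3 comparisons share libraries, so their values are set side by side and no overlap between them is counted as a result.

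**Figure D1:**
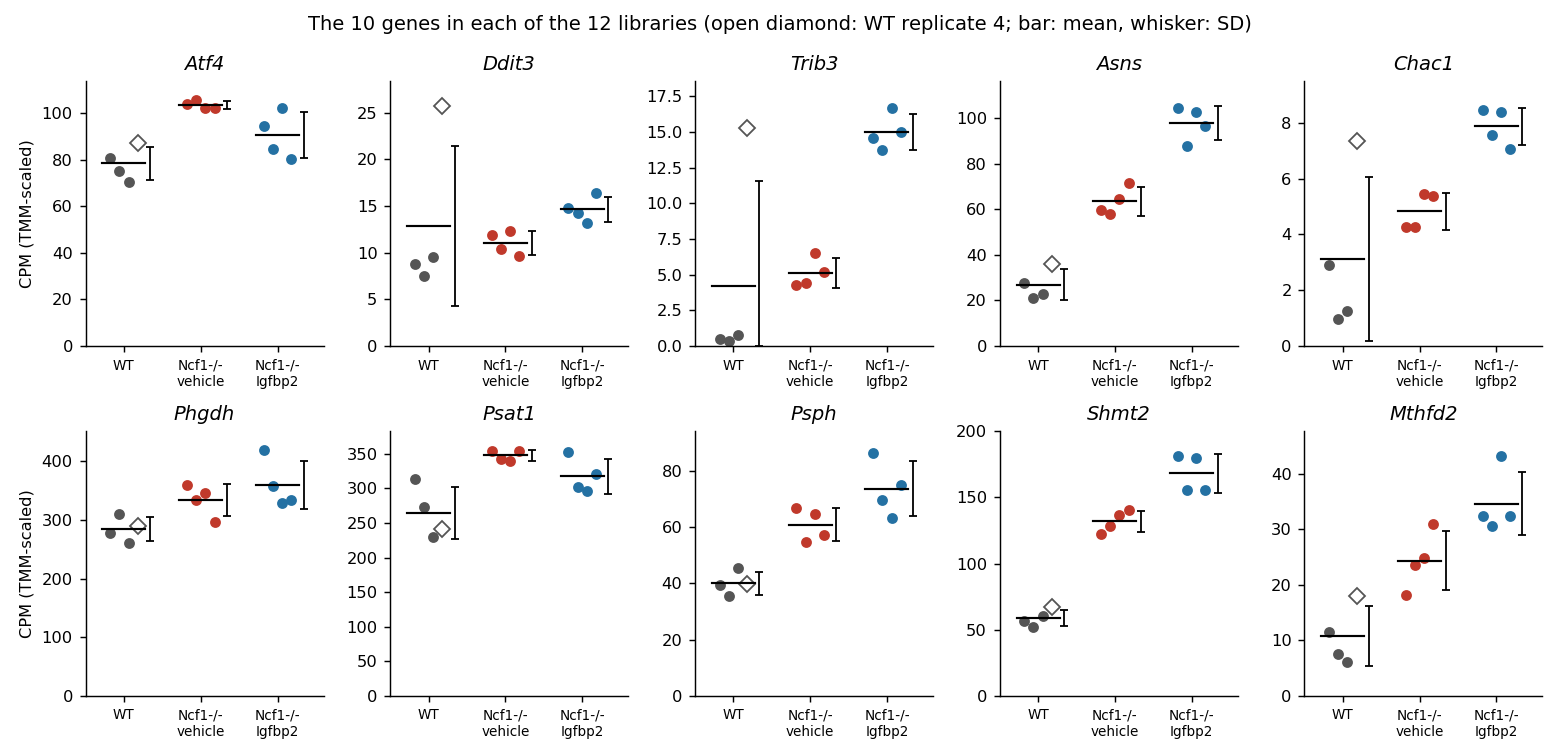
TMM-scaled CPM of the 10 genes (vertical axes, each from 0) in the 4 libraries of each group (horizontal axes). Points are libraries, the open diamond is WT replicate 4, bars are means and whiskers SDs, cut at 0. Shmt2 and Asns separate all 3 groups, whereas for Ddit3, Trib3 and Chac1 WT replicate 4 lies far above the other WT libraries.

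Atf4, whose protein is set largely by translation of the mRNA, was measured at 80.5, 75.2, 70.5 and 87.3 CPM in the WT libraries (replicates 1 to 4). It was 104, 106, 102 and 102 CPM in vehicle-treated Ncf1-/- libraries and 94.4, 84.5, 102 and 80.4 CPM in Igfbp2-treated ones. All Ncf1-/- vehicle libraries lay above all WT libraries, while the Igfbp2-treated libraries spanned part of both ranges. Atf4 rose by 0.40 ± 0.09 (SE, log2 scale) in Ncf1-/- over WT, which is 1.32-fold, with an adjusted p of 0.00192. With Igfbp2 it was 0.19 lower than with vehicle on the log2 scale (SE 0.09, adjusted p = 0.13), a difference that did not pass. Within the fit of the 8 Ncf1-/- libraries alone, with or without pairs assumed from title order as a replicate block, Atf4 was the 1 gene of the 10 called lower with Igfbp2.

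Ddit3 encodes CHOP, the partner of ATF4 in the stress branch, and it was not called in any comparison of the 12 libraries. It stood at 8.78, 7.5, 9.49 and 25.7 CPM in WT, at 11.8, 10.4, 12.4 and 9.66 CPM in vehicle-treated Ncf1-/- and at 14.8, 14.3, 13.2 and 16.4 CPM in Igfbp2-treated Ncf1-/- libraries. The fourth WT library exceeded every other library, and the first 3 WT libraries lay below all vehicle libraries. The difference of Ncf1-/- from WT was -0.21 ± 0.31 (log2, SE; adjusted p = 0.586) over 12 libraries and 0.33 ± 0.12 (adjusted p = 0.0362) without WT replicate 4, so its direction turned on that library. With Igfbp2 it was 0.41 higher than with vehicle on the log2 scale (adjusted p = 0.349, and 0.0286 without WT replicate 4). Against WT the Igfbp2-treated libraries differed by 0.70 ± 0.12 (adjusted p = 0.000362) without WT replicate 4, where over 12 libraries the difference did not pass. The gene overlaps Mars on the opposite strand, and whether counting used strand is not given in the sources used here.

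Trib3 encodes a pseudokinase that ATF4 and CHOP induce and that feeds back on both. It was lowest in 3 WT libraries, at 0.5, 0.378 and 0.774 CPM, and at 15.3 CPM in the fourth. Vehicle-treated Ncf1-/- libraries held 4.31, 4.4, 6.53 and 5.19 CPM, and Igfbp2-treated libraries 14.6, 13.8, 16.7 and 15 CPM. WT replicate 4 thus lay inside the range of the Igfbp2-treated libraries and 19.7 times above the highest of the other WT libraries. Over all 12 libraries the log2 difference of Ncf1-/- from WT was 0.34 ± 0.83 (adjusted p = 0.746). Without WT replicate 4 it was 3.10 ± 0.23 (adjusted p = 8.39e-07). Igfbp2-treated libraries were all above vehicle libraries, 2.94-fold on average, with a log2 difference of 1.55 ± 0.79 and an adjusted p of 0.165 over 12 libraries and 1.52 ± 0.16 and 0.000118 without WT replicate 4. Between Igfbp2-treated Ncf1-/- and WT Trib3 was not called over 12 libraries, at 3.72-fold (adjusted p = 0.0577), and rose by 4.61 ± 0.23 (adjusted p = 4.19e-08) without WT replicate 4. The SD of Trib3 within groups was 2.34 on the log2 scale in WT, 0.27 in vehicle and 0.12 in Igfbp2-treated libraries, beside medians over all genes of 0.22, 0.14 and 0.16.

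Chac1 encodes an enzyme that degrades glutathione and is a known target of ATF4. WT libraries held 2.91, 0.972, 1.26 and 7.35 CPM, vehicle-treated Ncf1-/- libraries 4.27, 4.26, 5.43 and 5.37 CPM and Igfbp2-treated libraries 8.47, 7.57, 8.37 and 7.07 CPM. The Igfbp2-treated libraries lay above all vehicle libraries, and WT replicate 4 lay among them. Chac1 rose by 1.37 ± 0.45 (log2, SE, adjusted p = 0.0175) between Igfbp2-treated Ncf1-/- and WT, and by 2.13 ± 0.29 (adjusted p = 5.6e-05) without WT replicate 4. That call was lost in 3 of 22 alternatives, the fit of only these groups, the study's test on TPM and the Y-linked covariate. The difference of vehicle-treated Ncf1-/- from WT, 0.67 ± 0.45 (adjusted p = 0.224), was 1.47 ± 0.29 (adjusted p = 0.00098) without WT replicate 4. That of Igfbp2 from vehicle was 0.70 ± 0.43 (adjusted p = 0.249) and, without WT replicate 4, 0.66 ± 0.24 (adjusted p = 0.0585).

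**Figure D2:**
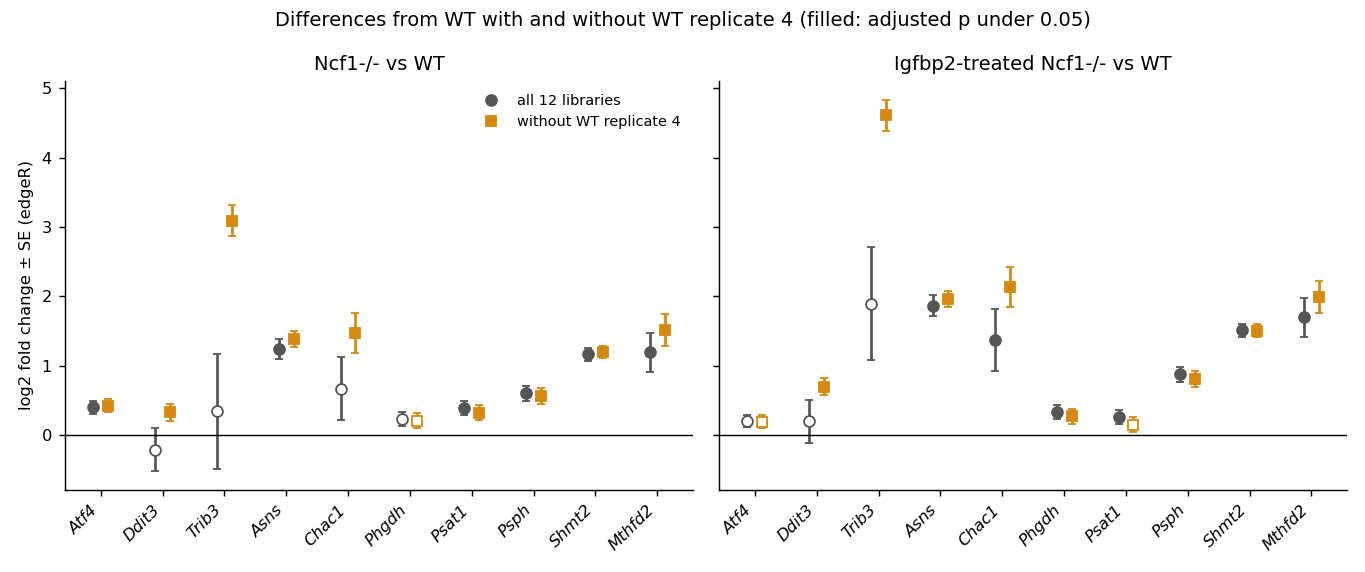
The log2 fold change from WT of the 10 genes (vertical axis, ± SE, edgeR), for vehicle-treated (left) and Igfbp2-treated (right) Ncf1-/- NSCs, with all 12 libraries (grey circles) and without WT replicate 4 (orange squares). Filled symbols have an adjusted p under 0.05. Ddit3, Trib3 and Chac1 in the left panel are open with 12 libraries and filled without WT replicate 4, and Trib3 moves from 0.34 to 3.10.

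Asns encodes asparagine synthetase, the classic target of the amino acid response. Its level was 27.8, 21, 22.6 and 36 CPM in WT, 59.5, 57.9, 64.6 and 71.6 CPM in vehicle-treated Ncf1-/- and 104, 87.6, 103 and 96.5 CPM in Igfbp2-treated Ncf1-/- libraries. The 3 groups did not overlap. Asns rose 2.36-fold in Ncf1-/- over WT (log2 1.24 ± 0.15, adjusted p = 1.2e-05) and 1.54-fold with Igfbp2 over vehicle (log2 0.62 ± 0.14, adjusted p = 0.00882). Together these placed the Igfbp2-treated libraries 3.65-fold above WT (log2 1.87 ± 0.15). The first of these calls held under all 22 alternatives run, whereas the Igfbp2 call was lost on library totals, on TPM scales and with a Y-linked covariate.

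The serine synthesis enzymes act in the order Phgdh, Psat1 and Psph, and they differed less between groups than Asns. Phgdh, which catalyses the committed first step, was 278, 311, 261 and 289 CPM in WT, 359, 334, 347 and 297 CPM in vehicle-treated and 419, 358, 330.0 and 334 CPM in Igfbp2-treated Ncf1-/- libraries. Vehicle-treated and WT libraries overlapped, and the log2 difference of 0.23 ± 0.10 did not pass (adjusted p = 0.0612). Between Igfbp2-treated Ncf1-/- and WT it rose by 0.34 ± 0.10 (adjusted p = 0.00936) with no overlap, a call lost in 7 of 22 alternatives.

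Psat1, the transaminase of the second step, was 313, 272, 229 and 242 CPM in WT, 354, 342, 340.1 and 355 CPM in vehicle-treated and 352, 302, 296 and 320.1 CPM in Igfbp2-treated Ncf1-/- libraries. It rose by 0.40 ± 0.10 on the log2 scale in Ncf1-/- (adjusted p = 0.00442), where the groups did not overlap. With Igfbp2 it was 0.13 below vehicle on the log2 scale (adjusted p = 0.357), and the Igfbp2-treated libraries overlapped WT as well. Its rise of 0.27 over WT in the Igfbp2-treated libraries (adjusted p = 0.0349) was 0.15 and not called without WT replicate 4 (adjusted p = 0.246).

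Psph, the phosphatase of the last step, was 39.3, 35.5, 45.5 and 39.6 CPM in WT, 66.9, 54.8, 64.6 and 57 CPM in vehicle-treated and 86.4, 69.7, 63.3 and 75.1 CPM in Igfbp2-treated Ncf1-/- libraries. It rose 1.52-fold in Ncf1-/- (log2 0.60 ± 0.11, adjusted p = 0.000398). The Igfbp2 difference of 0.28 ± 0.11 on the log2 scale did not pass (adjusted p = 0.0804), and its groups overlapped. Phgdh and Psph were the only 2 of the 10 genes with expected counts that were not whole numbers, in 12 and 11 libraries, as arises in RSEM when a read is divided between genes. An annotated pseudogene, Phgdh-ps1, lies on chromosome 7. Psph overlaps Cct6a and Psat1 overlaps the pseudogene Gm3329, each on the opposite strand.

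Shmt2 and Mthfd2 encode the mitochondrial enzymes that take one-carbon units from serine into the folate pool. Shmt2 was 56.2, 52.2, 60.5 and 66.8 CPM in WT, 122, 128, 137 and 140.2 CPM in vehicle-treated and 181, 156, 180 and 155 CPM in Igfbp2-treated Ncf1-/- libraries. The groups were separate and Shmt2 had the smallest adjusted p of the 10 genes in the first comparison, with a rise of 2.24-fold (log2 1.16 ± 0.09, adjusted p = 6.19e-07). With Igfbp2 it rose 1.27-fold over vehicle (log2 0.35 ± 0.09, adjusted p = 0.0172). That call was lost when vehicle replicate 1, vehicle replicate 2, Igfbp2 replicate 1 or Igfbp2 replicate 3 was left out, with log2 values between 0.27 and 0.40 over the 12 fits that each left out 1 library. Shmt2 overlaps Ndufa4l2 on the opposite strand.

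Mthfd2 was 11.5, 7.56, 6.02 and 18 CPM in WT, 18.1, 23.6, 24.7 and 31 CPM in vehicle-treated and 32.4, 30.6, 43.1 and 32.3 CPM in Igfbp2-treated Ncf1-/- libraries. Every vehicle library was above every WT library, by a margin of 18.08 against 18.04 CPM for the closest pair. Mthfd2 rose 2.29-fold in Ncf1-/- (log2 1.19 ± 0.28, adjusted p = 0.00263), and the Igfbp2 difference was 0.51 ± 0.27 (adjusted p = 0.183). Without WT replicate 4 the first difference was 1.52 ± 0.23 (adjusted p = 0.000163). The Igfbp2 difference passed with the 8 Ncf1-/- libraries alone (adjusted p = 0.0268). It also passed with pairs assumed from title order as a replicate block (adjusted p = 0.0198), though Y-linked expression differed within every such pair. Mthfd2 overlaps Gm43890 on the same strand.

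**Figure D3:**
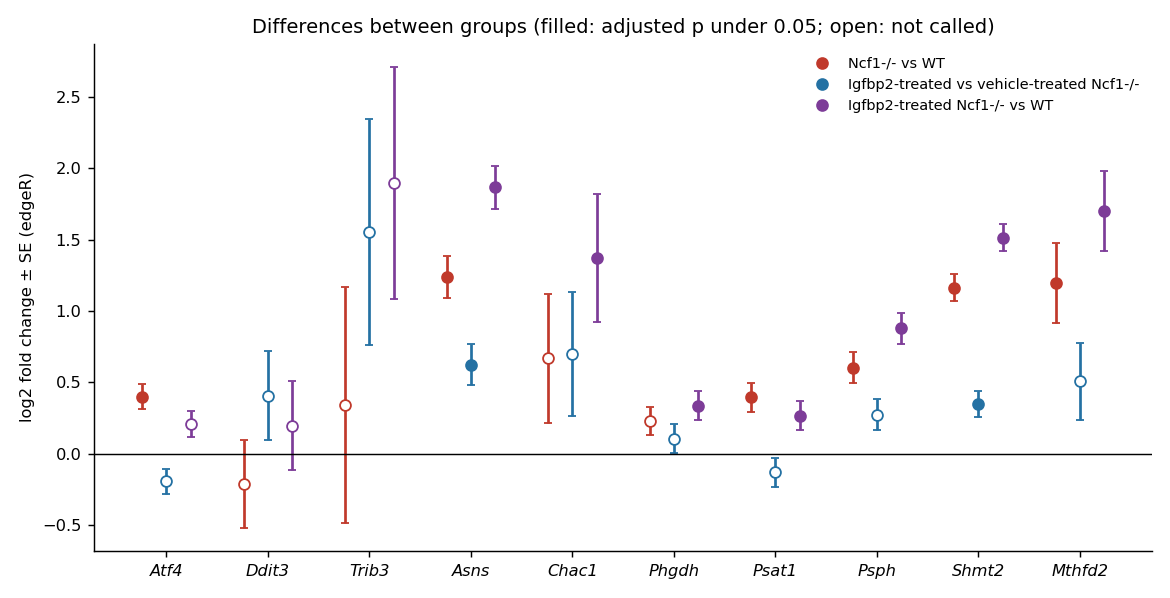
The log2 fold change (vertical axis, ± SE, edgeR over 12 libraries) of each of the 10 genes in the 3 comparisons, in colour. Filled points have an adjusted p under 0.05 and open points do not: 6 are filled for Ncf1-/- vs WT, 2 for Igfbp2 against vehicle (Asns and Shmt2) and 7 for Igfbp2-treated Ncf1-/- vs WT.

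Levels can be compared between genes on the TPM scale, which divides by transcript length. In vehicle-treated Ncf1-/- NSCs Phgdh had the highest level, 145 ± 2.92 TPM (SD, n = 4), followed by Psat1 at 117 ± 7.65 TPM and Atf4 at 49.8 ± 4.67 TPM. Shmt2 at 46.4 ± 7.21 TPM overlapped Atf4, and Psph at 33.4 ± 2.55 TPM overlapped Asns at 26.3 ± 4.97 TPM. Ddit3 and Mthfd2, at 11.9 ± 0.836 and 9.77 ± 3.11 TPM, overlapped, as did Chac1 and Trib3 at 2.48 ± 0.533 and 2.11 ± 0.415 TPM. In WT the same first 3 genes led, at 122 ± 12.6, 90.1 ± 4.91 and 36.4 ± 4.3 TPM, and Chac1, at 1.54 ± 1.52 TPM, and Trib3, at 1.77 ± 2.94 TPM, were the lowest and overlapped. Without WT replicate 4 they were 0.803 ± 0.405 and 0.293 ± 0.0987 TPM (SD, n = 3). In Igfbp2-treated NSCs Shmt2, at 42.6 ± 9.12 TPM, had a higher mean than Atf4, at 31.6 ± 8.21 TPM, with overlapping ranges.

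Within groups some of the genes varied together and others did not. Over the 12 libraries, after removing each group's mean on the log2 CPM scale, Pearson's r was 0.963 between Ddit3 and Trib3, 0.939 between Asns and Chac1, 0.896 between Asns and Mthfd2 and 0.759 between Asns and Shmt2. Phgdh and Asns had an r of -0.112 and Psat1 and Asns one of 0.0515, while Trib3 and Psat1 had one of -0.43 and Psph and Mthfd2 one of -0.372. Atf4 had an r of 0.703 with Mthfd2, 0.375 with Ddit3 and -0.268 with Psph. Without WT replicate 4, over 11 libraries, the first 4 values were 0.485, 0.844, 0.766 and 0.608, and that of Atf4 and Ddit3 was -0.455. That of Psat1 and Asns was then 0.529, and that of Phgdh and Asns -0.267. Trib3 and Psat1 had -0.512, Psph and Mthfd2 -0.525, Atf4 and Mthfd2 0.556 and Atf4 and Psph -0.303. These values describe 12 libraries that share culture, depth and scaling, and carry no test.

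The wider set of known ATF4 targets was described from a list of 26 genes, 25 of which were tested. In Ncf1-/- over WT 10 of the 25 rose and none fell, so that 40% were called beside 57.2% of all genes (28.9% higher). The median log2 difference was 0.39, and 15 were called without WT replicate 4, beside 55.3% of all genes in that fit. The largest rise was that of Slc7a3, a transporter of cationic amino acids, at 0.409, 0.54, 1.69 and 3.01 CPM in WT and 7.67, 6.53, 7.68 and 9.85 CPM in vehicle-treated Ncf1-/- libraries (log2 2.49 ± 0.39, adjusted p = 0.000127). With Igfbp2 11 of the 25 rose and none fell, beside 14.2% of all genes called higher, and 19 of the 25 were higher in every Igfbp2-treated than in every vehicle library, beside 19.3% of all genes. The median log2 difference was 0.68. The count of 11 was 6 or 7 when any of the Ncf1-/- libraries other than vehicle replicate 4 was left out, and 17 without WT replicate 4. Over all genes 2294 to 2911 were called in the former fits, beside 3923 over 12 libraries, and 26.4% in the latter. Cebpb, which encodes a C/EBP partner of ATF4, showed the largest rise, from 5.32, 6.43, 10.3 and 8.36 CPM to 41.6, 33.8, 27.3 and 34.3 CPM (log2 2.17 ± 0.44, adjusted p = 0.00471). Ppp1r15a, which encodes the GADD34 subunit that reverses eIF2 phosphorylation, was not called, at -0.02 ± 0.18 and 0.15 ± 0.18 on the log2 scale in the 2 comparisons.

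Among the WT libraries replicate 4 was the highest for 19 of the 25 other targets and for 12 of 20 tRNA synthetases, against 24.9% of all genes. It was the highest for 4 of 19 folate and glycine genes (21.1%) and 2 of 13 genes of the eIF2 list (15.4%). Of the 21 other targets matched to a RefSeq promoter, 7 held the TGATGNAA element (33.3%).

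Genes for the cytosolic aminoacyl-tRNA synthetases, which charge tRNAs and many of which ATF4 is known to activate, were all tested (20 genes). In Ncf1-/- over WT 11 rose and none fell, so that 55% were called, all of them higher. Of all genes 57.2% were called, 28.9% higher. Mars, the methionine enzyme, whose gene overlaps Ddit3 on the opposite strand, was at 0.66 ± 0.09 on the log2 scale (adjusted p = 5.97e-05). With Igfbp2 6 rose and none fell, 30% of the list, beside 25.0% of all genes called, 14.2% higher. Eprs, the glutamate and proline enzyme, was at 0.53 ± 0.15 (adjusted p = 0.0219). The Eprs call was lost in 11 of 23 alternatives, 5 of them fits that left out 1 library. The median log2 differences of the list were 0.28 and 0.23.

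Of 19 further genes of folate and glycine metabolism, 8 rose and 3 fell in Ncf1-/- over WT, so that 57.9% were called beside 57.2% of all genes. The mitochondrial Mthfd1l, which releases formate, was at 12.1, 10.8, 10.6 and 20.4 CPM in WT and 35.8, 43.1, 43 and 50.2 CPM in vehicle-treated Ncf1-/- libraries, a rise of 1.68 ± 0.20 on the log2 scale (adjusted p = 1.25e-05). Shmt1, the cytosolic counterpart of Shmt2, rose by 1.80 ± 0.14 (adjusted p = 4.87e-07), and the cytosolic Mthfd1 by 0.23 ± 0.08 (adjusted p = 0.0256), a call lost in 12 of 22 alternatives, 6 of them fits that left out 1 library. Mthfd2l, the paralog of Mthfd2, was not called (0.14 ± 0.12, adjusted p = 0.307). Srr, the serine racemase, fell by 0.79 on the log2 scale (adjusted p = 1.25e-05).

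With Igfbp2 2 of these 19 genes rose and 1 fell, 15.8% beside 25.0% of all genes called. Tyms, thymidylate synthase, which uses a folate one-carbon unit for DNA synthesis, fell by 0.66 on the log2 scale against vehicle (adjusted p = 0.00195). Fpgs, which retains folates in the cell, and Srr rose, Fpgs by 0.44 ± 0.11 (adjusted p = 0.0118). Shmt1, Mthfd1, Mthfd1l and Mthfd2l were not called, at -0.21, 0.08, 0.43 and -0.31 on the log2 scale.

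The genes upstream of ATF4 were described from a list of 13, the eIF2 kinases, their regulators, the eIF2 subunit Eif2s1, the phosphatase subunit Ppp1r15b and eIF2B. In Ncf1-/- over WT 3 rose and 4 fell, so that 53.8% were called beside 57.2% of all genes. The kinase genes Eif2ak1 and Eif2ak4 fell by 0.32 and 0.25 on the log2 scale (adjusted p = 0.00117 and 0.0253), calls lost in 4 and 10 of 22 alternatives, and Eif2ak2 and Eif2ak3 were not called, at 0.26 and 0.02. Impact, which encodes an inhibitor of the kinase GCN2, fell by 0.57 against WT (adjusted p = 5.12e-05) and by 0.29 with Igfbp2 (adjusted p = 0.0205). Eif2b2, a subunit of eIF2B, rose by 0.79 ± 0.14 in Ncf1-/- (adjusted p = 0.000273). With Igfbp2 1 gene of the list rose and 1 fell, 15.4% beside 25.0% of all genes called. The gene that rose was Ppp1r15b, by 0.29 ± 0.08 (adjusted p = 0.0178), a call lost in 12 of 23 alternatives, 6 of them fits that left out 1 library. None of the 4 kinase genes was called, with log2 differences of -0.13 to 0.31.

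**Figure D4:**
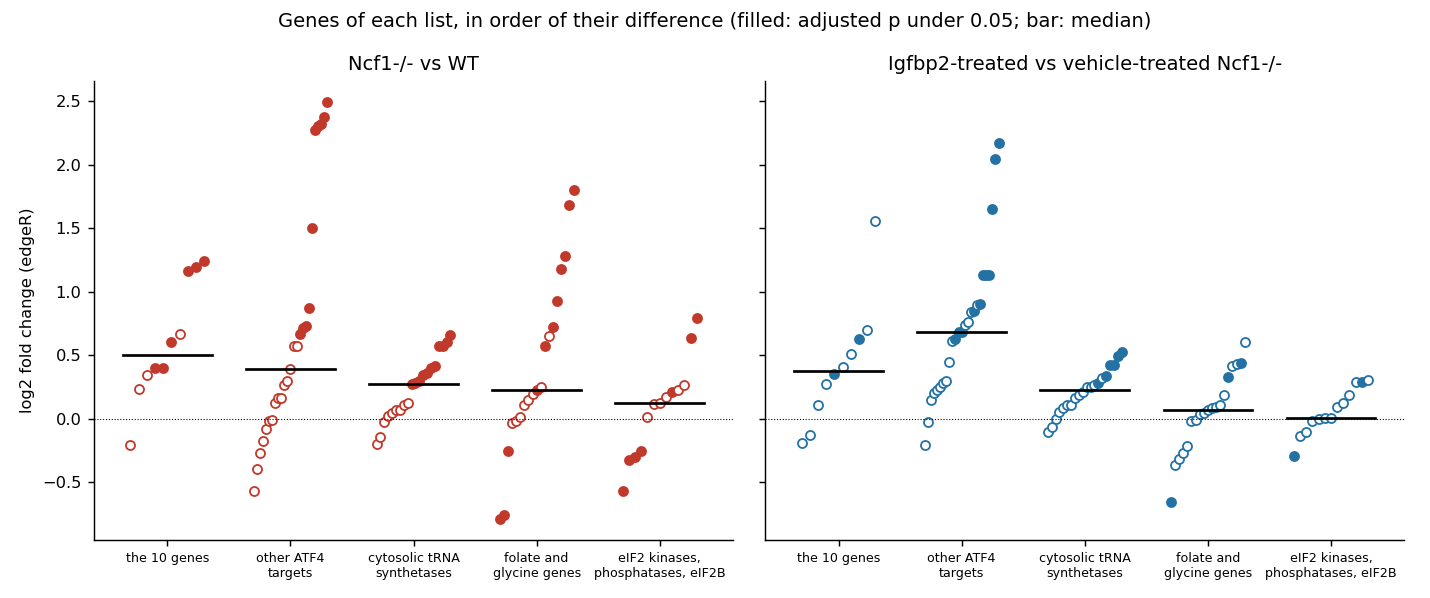
The log2 fold change (vertical axis, edgeR) of every tested gene of 5 lists (horizontal axis, each list sorted by value) in Ncf1-/- vs WT (left) and Igfbp2 against vehicle (right). Filled points have an adjusted p under 0.05 and bars are list medians. No filled point of the first 3 lists lies below 0, and the median of the other ATF4 targets is 0.39 on the left and 0.68 on the right.

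The Igfbp2 comparison depended on how libraries were scaled. TMM factors were 1.075 to 1.136 for vehicle and 0.892 to 0.976 for Igfbp2-treated libraries, and 5 structural RNAs (Rn7s1, Rn7s2, Rn7sk, Rpph1 and Rmrp) took 56 to 60.3% of TPM in vehicle and 62.1 to 72.3% in Igfbp2-treated libraries. The median log2 difference of all genes was 0.04 with TMM factors, -0.23 with library totals and -0.30 on the log2(TPM + 1) scale. With library totals 648 genes were called higher and 5258 lower, beside 2238 and 1685 with TMM factors. Asns was 0.62, 0.35 and 0.12 above vehicle on the 3 scales and Shmt2 0.35, 0.08 and -0.13, so Shmt2 changed direction on TPM. Relative to the median of all genes Asns was 0.59, 0.59 and 0.42 higher and Shmt2 0.31, 0.31 and 0.17 higher. Atf4 lay below the median of all genes on each scale, by 0.23, 0.23 and 0.37. Of the 25 other ATF4 targets 23 lay above that median on each of these scales, whereas the synthetases went from 17 of 20 with TMM factors and with library totals to 11 of 20 on TPM.

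**Figure D5:**
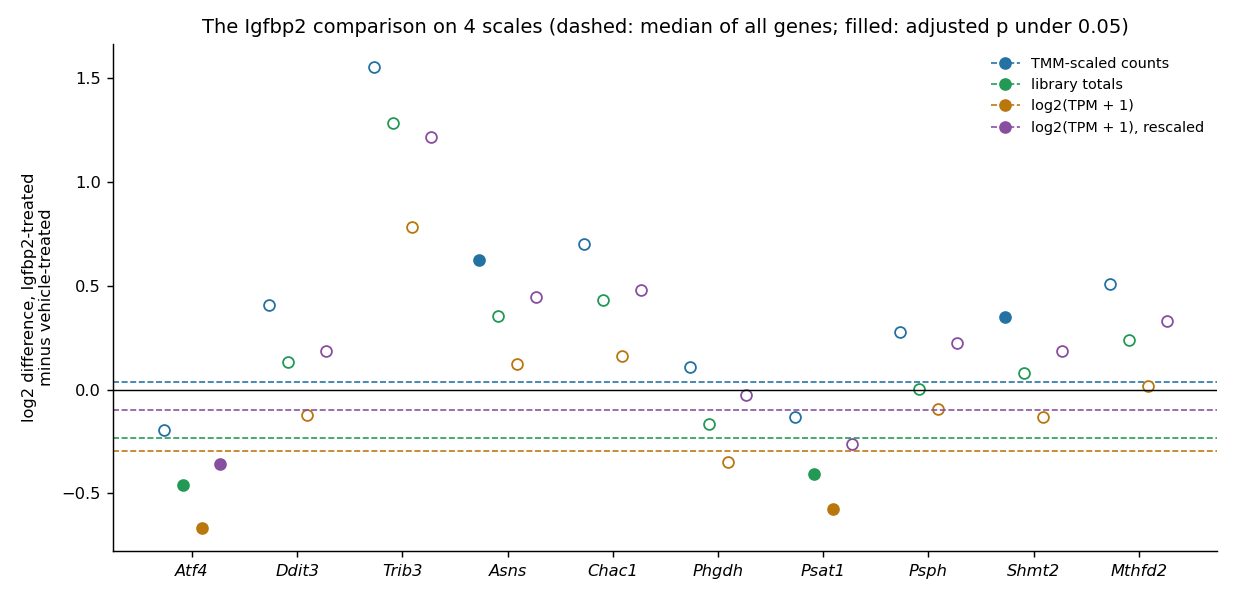
The log2 difference between Igfbp2-treated and vehicle-treated Ncf1-/- NSCs (vertical axis) for the 10 genes on 4 scales, in colour. Dashed lines are the median of all genes on the scale of the same colour, and filled points have an adjusted p under 0.05. On log2(TPM + 1) the median of all genes is -0.30, and Asns lies at 0.12 and Shmt2 at -0.13.

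The Igfbp2 comparison also depended on the samples in the fit. With the 8 Ncf1-/- libraries alone, 7 of the 10 genes were called, 6 higher and Atf4 lower. Over all genes 5709 were called in that fit, 2950 higher and 2759 lower, beside 3923 over 12 libraries. The count of the 10 genes was again 7 with a replicate block, beside 5434 of all genes. For the block the pairs of libraries were assumed from the order of their titles. Y-linked expression differed within each of these pairs, so the block cannot be taken to match cultures of the same pup. In the block fit Trib3, Chac1, Mthfd2 and Ddit3 joined Asns and Shmt2, at log2 differences of 1.52, 0.65, 0.47 and 0.36 (adjusted p = 7.03e-05, 0.00523, 0.0198 and 0.0435), and Atf4 fell by 0.25 (adjusted p = 0.0396). As a covariate over 12 libraries, the summed log2 levels of the 4 Y-linked genes left 1 of the 10 genes called. It was Trib3, at -2.76 on the log2 scale (adjusted p = 0.011), beside 5 genes of all 15706. Among the Ncf1-/- libraries this covariate followed the treatment, so its slope rested mainly on WT replicate 4 against the other WT libraries. That fit therefore cannot separate Igfbp2 from Y-linked expression, and no conclusion is drawn from it. Over the 3 groups together 8 of the 10 genes were called, all but Ddit3 and Trib3, where 71.6% of all genes were.

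The genes whose pattern over the 12 libraries was most like that of Atf4 on the log2 CPM scale were Gins3 (Pearson's r 0.925), Xrcc1 (0.912) and Ing5 (0.91). For Phgdh they were Anapc11 (0.937), Ripply3 (0.935) and Wdr83os (0.935), of which Ripply3 was below 1 CPM on average in every group. Gins3 had means of 3.17, 7.2 and 5.73 CPM and Anapc11 of 41, 54.4 and 60.9 CPM in WT, vehicle-treated and Igfbp2-treated libraries.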

How the data were processed

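RNA-seq of 12 libraries in 3 groups was analysed. Reads were mapped with Bowtie2 and quantified with RSEM by the authors, against GRCm38 per the labels, with versions and strand setting not given in the sources used here. The deposited gene tables hold expected counts (15.9% of them not whole), TPM and FPKM computed by RSEM, of which the authors' FPKM were not used here, and the authors' merged table holds values that equal TPM multiplied by the number of transcripts, within 1%, a score used only to pair gene identifiers with symbols. Samples were grouped by title.

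Expected counts were rounded, genes were filtered with filterByExpr (15706 of 45792 kept, holding 99.9% of counts), and edgeR 4.0.16 (TMM factors, quasi-likelihood test, a mean per group, R 4.3.3) was fitted to all 12 libraries, with Benjamini-Hochberg adjustment over all genes tested and a call at adjusted p under 0.05. CPM are TMM-scaled. Alternatives used DESeq2 1.42.0, limma 3.58.1, other filters, scalings and covariates, the study's ANOVA with Tukey tests on TPM, and each library left out.

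The 10 genes and the other lists were chosen with earlier results of these data known. Beyond the 10 genes, those with the largest called rise and fall of each list, at a mean of at least 5 CPM, and the 3 most like Atf4 and Phgdh by correlation were named, with Shmt1, Mthfd1, Mthfd1l, Mthfd2l, the 4 eIF2 kinases and Ppp1r15a. The study matched vehicle and Igfbp2 cultures by preparation, but the labels do not tie libraries to preparations, so the pairs were assumed to follow the order of titles. The assumed pairs of Ncf1-/- libraries correlated at -0.0673 to 0.0328 in their deviations from group means (4 pairs), and others at -0.248 to 0.257. The fits were checked on simulated counts.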

Additional observations from a re-analysis of the deposited data

Results flagged for a closer look

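In groups of 4 libraries, a library was singled out when its gap to the nearest other, as a share of the group's range, exceeded the 95% critical value of Dixon's test. Of 87 pairs of a named gene and a group, 5 met this, and chance gives about 1 in 20. WT replicate 4 accounted for Ddit3 (25.7 CPM, the next 9.49 CPM), Trib3 (15.3 CPM, the next 0.774 CPM) and Mthfd1l (20.4 CPM, the next 12.1 CPM). Igfbp2-treated replicate 3 accounted for Mthfd2 (43.1 CPM, the next 32.4 CPM) and Eif2ak4 (23.5 CPM, the next 19.7 CPM).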

How the results depend on the processing

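In Ncf1-/- vs WT the calls of Asns and Shmt2 held under all 22 alternatives run. The study's ANOVA on TPM moved several counts of calls: the 10 genes went from 6 to 3 in Ncf1-/- vs WT, from 2 to 1 in Igfbp2 against vehicle, from 7 to 2 in Igfbp2-treated Ncf1-/- vs WT and from 8 to 5 over the 3 groups. Over all genes the calls in the first 3 of these went from 8978 to 4328, from 3923 to 2148 and from 9801 to 5592. With Igfbp2 the 1 gene of the 10 that the ANOVA called was Psat1, lower, and neither Asns nor Shmt2 was called. In the first comparison it gave 4 of the other ATF4 targets (10 in edgeR over 12 libraries), 2 synthetases (11) and 1 gene of the eIF2 list (7), and with Igfbp2 2 other targets (11) and 0 synthetases (6). At adjusted p under 0.01 the Igfbp2 counts were 1 of the 10 genes, 6 other targets, 1 synthetase, 1 folate gene (3 at the main threshold) and 0 of the eIF2 list (2), and the synthetases in Ncf1-/- vs WT were 7. Over all genes 1514 were called with Igfbp2 and 7039 in Ncf1-/- vs WT at that threshold. Library totals gave 2 of the 10 genes with Igfbp2, Atf4 and Psat1, both lower. With Igfbp2 they also gave 7 other targets, 3 synthetases, 6 folate genes and 6 eIF2 genes, all but the other targets lower. Over all genes library totals called 648 higher and 5258 lower with Igfbp2. With Igfbp2, limma on log2(TPM + 1) and on log2(TPM + 0.1) each called Atf4 and Psat1 among the 10 genes, both lower. The other targets called were 6 and 4, 1 of them lower on each scale. The 7 and 7 folate genes, 7 and 7 eIF2 genes and 4 and 4 synthetases called were all lower. Of all genes 6354 and 6519 were called with Igfbp2 in these fits, 6154 and 6354 of them lower. In Ncf1-/- vs WT these fits gave 6 and 6 synthetases and 3 and 3 eIF2 genes. Rescaled TPM gave 1 of the 10 genes (Atf4, lower) and 1 synthetase (higher) with Igfbp2 and 7 synthetases in Ncf1-/- vs WT. Over all genes it called 711 higher and 2458 lower with Igfbp2. The Y-linked covariate, which cannot be separated from treatment among the Ncf1-/- libraries, gave 1 of the 10 genes with Igfbp2 (Trib3, lower). It gave 0 other targets, 0 synthetases, 0 folate and 0 eIF2 genes, beside 5 of all genes. Without a gene filter 1 eIF2 gene was called with Igfbp2, beside 3218 of all genes. The cause of these moves was not tested.

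With only the 2 groups compared the Igfbp2 counts were 7 of the 10 genes, 19 other targets and 9 folate genes, beside 5709 of all genes. The pairing, assumed to follow title order and fitted as a replicate block, gave 7 of the 10 genes, 19 other targets and 8 folate genes. Synthetases and eIF2 genes stayed within 1.5 times, and 5434 of all genes were called. Leaving out 1 library at a time gave 6 to 9 of the 10 genes in Ncf1-/- vs WT, 1 to 4 with Igfbp2, 5 to 8 in Igfbp2-treated Ncf1-/- vs WT and 6 to 8 over the 3 groups. Over all genes the first 3 of these ranges were 8254 to 9406, 2294 to 4872 and 9192 to 10031. The Igfbp2 count of the 10 genes was 1 without vehicle replicate 1 or 2 or Igfbp2 replicate 1 and 4 without WT replicate 4. All genes called with Igfbp2 in these 4 fits were 2320, 2294, 2911 and 4229, beside 3923 over 12 libraries. Other targets ranged over 8 to 15 and, with Igfbp2, 6 to 17. The 6 was reached without vehicle replicates 1, 2 or 3 or Igfbp2 replicates 2, 3 or 4, 7 without Igfbp2 replicate 1, and 17 without WT replicate 4. Synthetases ranged over 7 (without vehicle replicate 4) to 11 and, with Igfbp2, 1 (without vehicle replicates 1, 2 or 3 or Igfbp2 replicate 3), 2 (Igfbp2 replicate 2) or 3 (Igfbp2 replicates 1 or 4) to 10 (vehicle replicate 4). Folate genes ranged over 10 to 12 and 2 to 5 (without WT replicate 4), and eIF2 genes over 5 to 8 and 1 to 2, the 1 without vehicle replicates 1, 2 or 3 or Igfbp2 replicates 2, 3 or 4.

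Values that turned direction, on the log2 scale, were as follows. In Igfbp2 against vehicle, the ANOVA on TPM, limma on log2(TPM + 1) and limma on log2(TPM + 0.1) gave Ddit3 -0.13, -0.12 and -0.13, Phgdh -0.33, -0.35 and -0.35, Psph -0.090, -0.094 and -0.097, Shmt2 -0.12, -0.13 and -0.13, Fpgs -0.12, -0.12 and -0.15, Ppp1r15b -0.20, -0.18 and -0.20, Mthfd1 -0.38, -0.37 and -0.39, Mthfd1l -0.049, -0.064 and -0.072, Eif2ak2 -0.54, -0.44 and -0.53, Eif2ak3 -0.19, -0.17 and -0.19, Eif2ak4 -0.49, -0.37 and -0.49, and Ppp1r15a -0.17, -0.16 and -0.19. In Igfbp2-treated Ncf1-/- vs WT the same 3 gave Atf4 -0.20, -0.22 and -0.23, Ddit3 -0.34, -0.13 and -0.13, Phgdh -0.083, -0.093 and -0.094, and Psat1 -0.20, -0.20 and -0.21, and log2(TPM + 0.1) gave Ddit3 0.0026 in Ncf1-/- vs WT. Library totals gave Mthfd1 -0.19, Eif2ak2 -0.084, Eif2ak4 -0.18, Ppp1r15a -0.12 and Phgdh -0.17 with Igfbp2, and Ppp1r15a 0.16 in Ncf1-/- vs WT. Rescaled TPM gave Mthfd1 -0.070, Eif2ak2 -0.20, Eif2ak4 -0.16 and Phgdh -0.027 with Igfbp2, Eif2ak3 -0.12 in Ncf1-/- vs WT, and Atf4 -0.081 and Psat1 -0.060 in Igfbp2-treated Ncf1-/- vs WT. The Y-linked covariate gave Mthfd1l -0.36, Eif2ak1 0.012, Ppp1r15a -0.61, Ddit3 -1.04, Trib3 -2.76, Chac1 -1.24, Psat1 0.029 and Mthfd2 -0.52 with Igfbp2, Ppp1r15a 0.23 and Ddit3 0.36 in Ncf1-/- vs WT, and Ddit3 -0.68 in Igfbp2-treated Ncf1-/- vs WT. With 2 groups Ppp1r15a was 0.011 in Ncf1-/- vs WT. In that comparison Eif2ak3 was -0.16 to -0.0013 in 8 of the fits that left out 1 library and 0.10 without vehicle replicate 1, Ppp1r15a 0.012 without Igfbp2 replicate 4 and 0.20 without WT replicate 4, Ddit3 0.33 without WT replicate 4 and -0.41 without WT replicate 2, and Trib3 -0.035, -0.050 and -0.039 without WT replicates 1, 2 and 3 and 3.10 without WT replicate 4. With Igfbp2 Eif2ak4 was -0.029 without Igfbp2 replicate 3 and 0.17 without vehicle replicate 4, and Ddit3 in Igfbp2-treated Ncf1-/- vs WT was -0.045 without WT replicate 2 and 0.70 without WT replicate 4. Trib3 had no DESeq2 value where its adjusted p was not given.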
